A study of Homo sapiens with 18 samples.

Results

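Depletion of PRMT5 in MDA-MB-231 cells without dexamethasone (Dex) was examined by comparing 3 RNA-seq libraries of cells transfected with siPRMT5 and treated with vehicle (siPRMT5 Eth) with 3 libraries of cells transfected with a non-specific siRNA and treated with vehicle (siNS Eth). These 6 libraries were chosen by their labels, out of 18 in the series. MDA-MB-231 is an established human triple-negative breast cancer (TNBC) cell line. Both groups received 25 nM of siRNA for 48 h and ethanol (Eth), the solvent of Dex, for 8 h. The siRNAs are SMART-pools, that is, 1 mix of siRNAs per target, so effects of the mix on other transcripts cannot be told apart from effects of PRMT5 loss. The other 12 libraries are siNS and siPRMT5 cells treated with 100 nM Dex for 8 h, and cells transfected with an siRNA against HP1γ (siHP1γ) with Eth or Dex. The comparison asks what PRMT5 loss does to the transcriptome when the glucocorticoid receptor (GR) is given no added Dex.

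PRMT5 is the main enzyme that places symmetric dimethyl groups on arginines. It works in a complex with WDR77 and reaches its substrates through adaptors such as CLNS1A, RIOK1 and COPRS. Its substrates include the Sm proteins of the spliceosome, histones and transcription factors, and its loss is known to disturb the splicing of many transcripts, to slow proliferation and, in some cells, to raise interferon-stimulated genes. Methylthioadenosine, which the enzyme MTAP removes, inhibits PRMT5.

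Between 8682992 and 10047082 reads were counted on genes in each of the 6 libraries, and 15298 genes had enough counts to be tested. Values are given in CPM, counts scaled to 1e6 per library after TMM scaling. On log2 CPM, the first principal component held 71.5% of the variance of the 6 libraries and separated the 3 siPRMT5 libraries from the 3 siNS libraries. The line's mesenchymal genes were present, with VIM between 8016 and 9592 CPM and CD44 between 701 and 857 CPM. Of the genes expected to be low or absent, PGR and KRT5 had 0 counts in all 6 libraries, with ESR1 and CDH1 at no more than 2 counts. The others were detected, with ERBB2 at 24.5 to 31.1 CPM, EPCAM at 9.60 to 12.6 CPM and GATA3 at 2.68 to 5.19 CPM. Of the markers of other cell types, CD3E, DCN, LUM, ADIPOQ and ALB had 0 counts, PTPRC, CD14 and VWF did not exceed 0.713 CPM, and PECAM1 (1.10 to 3.54 CPM) and COL1A1 (2.69 to 15.1 CPM) were low. MTAP and its neighbours CDKN2A and CDKN2B on chromosome 9 had 0 counts in all 6 libraries, where 3 counts would be 0.300 to 0.352 CPM. In RNA from whole cultures, fewer cells of a type and less RNA per cell cannot be told apart.

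PRMT5 itself was nearly lost. Its transcript, from chr14:22920525-22929408 on the minus strand (hg38), was at 226, 262 and 259 CPM in the siNS libraries and 8.37, 7.75 and 6.10 CPM in the siPRMT5 libraries, so the groups did not come near each other. The siPRMT5 mean was 2.97% of the siNS mean (log2 fold change -5.08 ± 0.10 SE, adjusted p = 3.5e-22). With 3 libraries against 3, the exact two-sided permutation test gave p = 0.10, the smallest it can give. The counts of the pseudogene PRMT5P1, which resembles PRMT5, were 26, 23 and 23 in the siNS libraries and 2, 5 and 1 in the siPRMT5 libraries. The overlapping antisense gene PRMT5-AS1 had 0 to 2 counts.

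The partners of PRMT5 changed little. WDR77, its obligate partner, was at 37.0, 33.4 and 35.6 CPM in the siNS libraries and 28.9, 24.8 and 28.9 CPM in the siPRMT5 libraries (log2 fold change -0.36 ± 0.10 SE, adjusted p = 0.0047). COPRS, an adaptor to histones, rose slightly (log2 fold change 0.22 ± 0.09 SE, adjusted p = 0.04), and CLNS1A and RIOK1 did not pass the test (log2 fold change -0.12 and 0.16). Among the 7 other arginine methyltransferases tested, 1 rose (14.3%) and 2 fell (28.6%), against 20.6% and 21.6% of all genes. PRMT3, which methylates a ribosomal protein, had the largest decrease (62.5, 58.0 and 59.0 CPM in the siNS libraries and 30.9, 30.5 and 35.9 CPM in the siPRMT5 libraries; log2 fold change -0.88 ± 0.09 SE, adjusted p = 1.1e-08). CARM1, an asymmetric arginine methyltransferase and coactivator, fell to a log2 fold change of -0.31 (adjusted p = 0.0024), and PRMT7 rose by 0.32 (adjusted p = 0.021). PRMT1, which makes most of the cell's asymmetric dimethylarginine, was at -0.20 and did not pass the test.

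**Figure D1:**
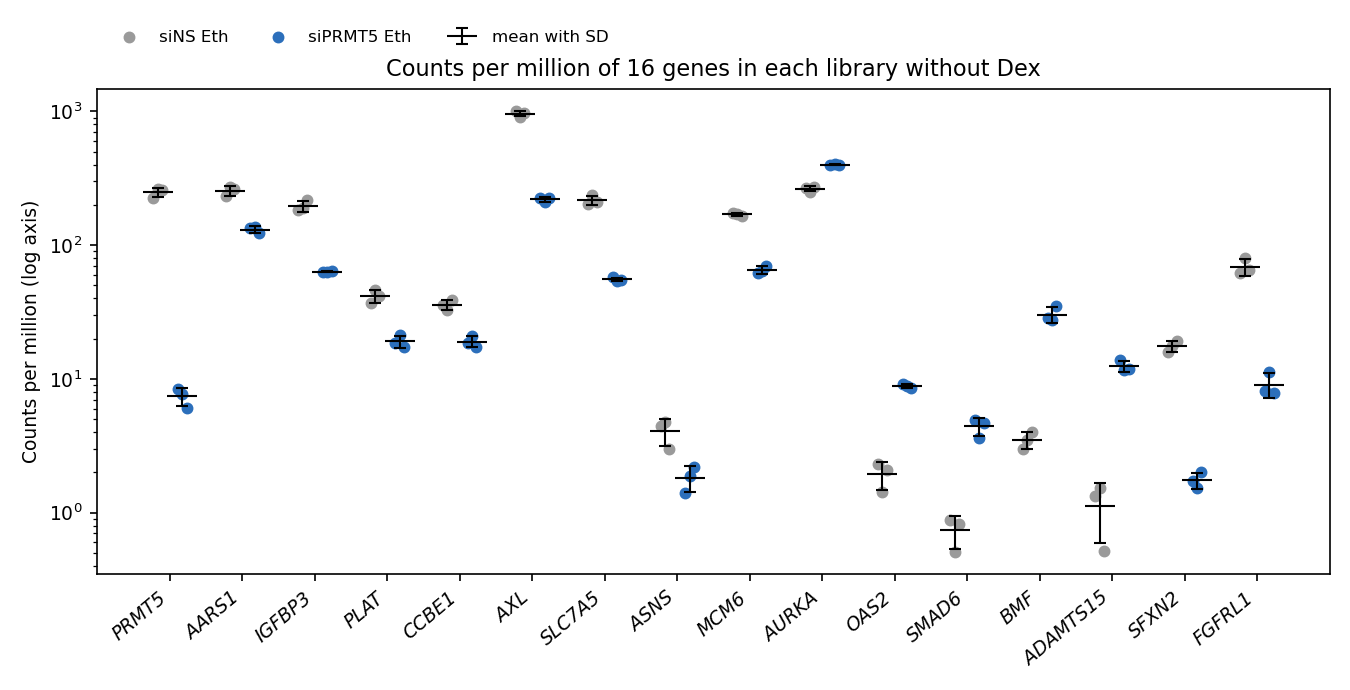
CPM (log axis) of 16 genes in each of the 3 siNS Eth (grey) and 3 siPRMT5 Eth (blue) libraries without Dex, with the mean and SD of each group as black bars. The siPRMT5 points lie below the siNS points for PRMT5, AARS1, IGFBP3, PLAT, CCBE1, AXL, SLC7A5, ASNS, MCM6, SFXN2 and FGFRL1 and above them for AURKA, OAS2, SMAD6, BMF and ADAMTS15, and the groups do not overlap for any of the 16. No overlap was found in 49.1% of all genes tested, and BMF, ADAMTS15, SFXN2 and FGFRL1 come from rankings that required it.

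Over all genes, PRMT5 depletion changed 6446 of the 15298 tested (42.1%) at an adjusted p under 0.05. Of these, 3149 were higher (20.6% of the genes tested) and 3297 were lower (21.6%). These shares, 20.6% and 21.6%, are the ones to set beside the counts of each gene list without Dex. A change of at least 1.5-fold was reached by 2741 genes (17.9%), 1163 higher and 1578 lower, and by test against a 1.5-fold change (glmTreat) by 1035. At least 2-fold, 405 genes were higher and 707 lower, and at least 4-fold 62 and 71. Among the 2643 that averaged 100 CPM or more, 10 rose and 57 fell at least 2-fold. The 3 siPRMT5 values did not overlap the 3 siNS values in 7505 genes (49.1% of those tested). The median log2 fold change of all genes was 0.00048, so the changes below are relative to a centre at 0.

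The 12 largest increases, taken from called genes that averaged 5 CPM or more and whose groups did not overlap, began from low levels. ADAMTS15, a secreted metalloprotease, had 1.32, 1.53 and 0.518 CPM in the siNS libraries and 13.8, 11.7 and 11.9 CPM in the siPRMT5 libraries (log2 fold change 3.46 ± 0.24 SE, adjusted p = 1.7e-11). BMF, a member of the BCL2 family that promotes apoptosis, had 2.98, 3.47 and 4.04 CPM in the siNS libraries and 28.3, 27.5 and 34.8 CPM in the siPRMT5 libraries (log2 fold change 3.11 ± 0.16 SE, adjusted p = 4.5e-14). VIPR1, a receptor for vasoactive intestinal peptide, had 3.09, 2.14 and 2.49 CPM in the siNS libraries and 19.9, 17.1 and 19.4 CPM in the siPRMT5 libraries (log2 fold change 2.87 ± 0.17 SE, adjusted p = 4.5e-13). In each of the 3, the lowest siPRMT5 library was several-fold above the highest siNS library, a gap that follows from ranking the largest changes without overlap. Next came ITGA10 (log2 fold change 2.76), a collagen-binding integrin chain, PTGES (2.76), which makes prostaglandin E, PLLP (2.74), a membrane protein of myelin, SCG2 (2.67), a secretory granule protein, and CYP1A1 (2.50), the cytochrome P450 induced by the aryl hydrocarbon receptor. SESN3 (2.45), a stress-induced inhibitor of mTORC1 signalling, ABCC3 (2.38), an export pump, PIK3R3 (2.30), a regulatory subunit of PI3-kinase, and GBP2 (2.29), a GTPase induced by interferon, completed the 12. PIK3R3 had the highest mean CPM of the 12 in siPRMT5 cells, with 11.3, 8.56 and 10.0 CPM in the siNS libraries and 46.4, 44.1 and 56.1 CPM in the siPRMT5 libraries, and it overlaps the read-through gene P3R3URF-PIK3R3, as GBP2 overlaps GBP7.

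The 12 largest decreases included genes well above 100 CPM in siNS cells. SFXN2, a mitochondrial carrier of the sideroflexin family, was at 15.9, 17.5 and 19.1 CPM in the siNS libraries and 1.72, 1.53 and 2 CPM in the siPRMT5 libraries (log2 fold change -3.31 ± 0.17 SE, adjusted p = 3.6e-14). FGFRL1, an FGF receptor without a kinase domain, was at 61.5, 79.6 and 65.1 CPM in the siNS libraries and 8.05, 11.3 and 7.90 CPM in the siPRMT5 libraries (log2 fold change -2.93 ± 0.17 SE, adjusted p = 6.3e-13). CHMP3, a subunit of the membrane-cutting ESCRT-III complex, was at 105, 97.3 and 107 CPM in the siNS libraries and 16.1, 15.5 and 14.5 CPM in the siPRMT5 libraries (log2 fold change -2.75 ± 0.10 SE, adjusted p = 3.1e-17), and it overlaps the read-through gene RNF103-CHMP3, with which its counts may be shared. ADAMTS6, another secreted metalloprotease, was at 438, 411 and 412 CPM in the siNS libraries and 70.6, 74.0 and 73.6 CPM in the siPRMT5 libraries (log2 fold change -2.53 ± 0.07 SE, adjusted p = 2.1e-19). Within each group the 3 libraries of these genes were close. The ranking took the largest changes among called genes without overlap, so the gap between the groups follows from that choice. CYB5R3, a reductase of cytochrome b5 whose gene overlaps A4GALT, was at 407, 466 and 431 CPM in the siNS libraries and 81.9, 78.5 and 69.0 CPM in the siPRMT5 libraries (log2 fold change -2.51 ± 0.08 SE, adjusted p = 8.0e-18), and FAM120A, an RNA-binding scaffold protein, at 413, 366 and 374 CPM in the siNS libraries and 76.3, 67.4 and 77.1 CPM in the siPRMT5 libraries (log2 fold change -2.38 ± 0.08 SE, adjusted p = 3.7e-18). The others were PAEP (log2 fold change -2.91), which encodes glycodelin, MYPN (-2.87), a sarcomere protein, the long non-coding RNA LINC01293 (-2.85), ZNF385A (-2.66), a zinc finger protein, NCK2 (-2.59), an adaptor between receptor tyrosine kinases and actin, and CA12 (-2.43), a carbonic anhydrase of the cell surface.

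Of the genes that changed at least 2-fold, the 6 with the highest mean CPM were AHNAK, CCN1, HSPA5, AXL, CCN2 and SSR3, and 5 of these 6 fell. AXL, a receptor tyrosine kinase linked to invasion, lost more than the others (1003, 912 and 975 CPM in the siNS libraries and 225, 210.2 and 226 CPM in the siPRMT5 libraries; log2 fold change -2.13 ± 0.06 SE, adjusted p = 1.4e-18). CCN1 and CCN2, matrix proteins and classic targets of YAP, fell to log2 fold changes of -1.14 and -1.24. HSPA5, the main chaperone of the endoplasmic reticulum (ER), was at 869.6, 929.6 and 987 CPM in the siNS libraries and 428, 429 and 391 CPM in the siPRMT5 libraries (log2 fold change -1.16 ± 0.07 SE, adjusted p = 3.9e-13). SSR3, a subunit of the complex beside the ER translocon, fell as well (log2 fold change -1.54 ± 0.08 SE, adjusted p = 8.6e-14). AHNAK, a very large scaffold protein, was the one that rose (1161, 1354 and 1240.3 CPM in the siNS libraries and 2089, 2966 and 2893 CPM in the siPRMT5 libraries; log2 fold change 1.08 ± 0.14 SE, adjusted p = 5.3e-07), and its lowest siPRMT5 library was replicate 1.

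Genes of the integrated stress response (ISR) fell together. In this response the factor ATF4 is translated when amino acids are short or proteins misfold, and it raises genes for amino acid uptake, amino acid synthesis and tRNA charging. Of the 37 genes listed, 31 were tested, of which 24 fell (77.4%, against 21.6% of all genes) and 2 rose (6.45%, against 20.6%), with a median log2 fold change of -0.52. ATF4 itself was at 302 ± 12.7 CPM (SD, n = 3) in siNS and 190.0 ± 13.1 CPM (SD, n = 3) in siPRMT5 cells (log2 fold change -0.67 ± 0.07 SE, adjusted p = 1.2e-08), and its partner CEBPG fell too (-0.84, adjusted p = 3.4e-11). Several transporters of amino acids fell as well, and SLC38A2 did not pass the test (log2 fold change -0.14). SLC7A5, which imports leucine and had the largest decrease of the list, was at 204, 236 and 212 CPM in the siNS libraries and 57.5, 54.4 and 54.9 CPM in the siPRMT5 libraries (log2 fold change -1.97 ± 0.08 SE, adjusted p = 2.3e-16). SLC7A11, the cystine importer, SLC7A1, which imports arginine and lysine, and SLC3A2, the shared heavy chain of SLC7A5 and SLC7A11, fell to log2 fold changes of -1.23, -1.07 and -0.69. JDP2, a repressor of the AP-1 family, fell (log2 fold change -1.71 ± 0.16 SE, adjusted p = 3.9e-09), as did CHAC1, which breaks down glutathione (14.02, 11.1 and 12.1 CPM in the siNS libraries and 4.19, 4.46 and 2.90 CPM in the siPRMT5 libraries; log2 fold change -1.70 ± 0.17 SE, adjusted p = 8.7e-09). ASNS, which makes asparagine, was low in both groups (4.42, 4.79 and 3.00 CPM in the siNS libraries and 1.395, 1.88 and 2.20 CPM in the siPRMT5 libraries; log2 fold change -1.15 ± 0.27 SE, adjusted p = 0.0014). The enzymes of serine and one-carbon metabolism PSAT1, SHMT2 and MTHFD2 fell to -0.64, -0.80 and -0.42, while PHGDH, the first enzyme of serine synthesis, had 0 or 1 count per library and was not tested. The stress-induced factors DDIT3 and TRIB3 fell to -0.52 and -0.59. The 2 genes that rose were VEGFA, the angiogenic growth factor (log2 fold change 0.73 ± 0.07 SE, adjusted p = 3.3e-09), and VLDLR, a lipoprotein receptor (log2 fold change 0.46 ± 0.08 SE, adjusted p = 6.7e-05).

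AARS1, which charges alanine onto its tRNA, fell to 51.2% of its siNS level. It lies at chr16:70251983-70289707 on the minus strand, where GENCODE also places DDX19B and RN7SL279P, and was at 233, 273 and 262 CPM in the siNS libraries and 133, 136 and 123 CPM in the siPRMT5 libraries (log2 fold change -0.97 ± 0.08 SE, adjusted p = 1.3e-10). Among the 22 genes for cytosolic aminoacyl-tRNA synthetases and their scaffolds that were tested, 10 fell (45.5%) and 2 rose (9.09%), and the median log2 fold change was -0.20. AARS1 was the only one of the 22 that fell at least 1.5-fold, but IARS1 (1.4997-fold) and QARS1 (1.47-fold) lay just under that limit. IARS1, for isoleucine, and QARS1, for glutamine, followed with log2 fold change -0.58 ± 0.06 SE, adjusted p = 4.7e-08 and log2 fold change -0.55 ± 0.08 SE, adjusted p = 8.1e-06. AIMP2, a scaffold of the multisynthetase complex, and HARS1, for histidine, rose by 0.19 and 0.18 on the log2 scale (adjusted p = 0.027 and 0.028). TARS1, LARS1, RARS1 and NARS1 lay within 0.04 of 0 and did not pass the test. Of the 16 mitochondrial synthetases tested, 5 fell (31.2%) and 1 rose (6.25%). NARS2, for mitochondrial asparagine, had the largest decrease (log2 fold change -0.86 ± 0.08 SE, adjusted p = 3.7e-09).

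ATF4 binds with C/EBP factors to a composite element, which was searched as TGATGNAA on both strands of the RefSeq promoters (GRCh38.p14), from 250 bases before to 50 bases after the gene start that RefSeq gives. Where the table holds several promoters of a gene, the first was used for the gene sets. Of the 24 ISR genes that fell, 19 had a promoter in the table and 5 held the motif (26.3%). Of the 10 synthetase genes that fell, 9 had a promoter and 3 held it (33.3%), as did 3 of 8 synthetase genes that did not pass the test (37.5%). The motif was in 1.66% of the 10035 promoters of the genes tested and in 3.62% of all 35116 promoters. Stretches of up to 88 bases before the gene start are printed for the 5 genes that fell and held the motif wholly upstream of it, 5′ to 3′ on the gene's strand and with the motif in capitals, to show where the element lies and on which strand it reads. TTGCATCA is the motif read on the other strand.
AARS1 (chr16:70289646-70289733, minus strand): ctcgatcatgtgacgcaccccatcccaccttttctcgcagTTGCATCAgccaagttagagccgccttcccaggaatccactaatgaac
IARS1 (chr9:92293698-92293750, minus strand): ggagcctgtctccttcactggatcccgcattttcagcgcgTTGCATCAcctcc
ASNS (chr7:97872429-97872516, minus strand): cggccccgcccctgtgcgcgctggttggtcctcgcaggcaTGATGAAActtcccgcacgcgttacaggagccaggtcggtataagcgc
CHAC1 (chr15:40953222-40953309, plus strand): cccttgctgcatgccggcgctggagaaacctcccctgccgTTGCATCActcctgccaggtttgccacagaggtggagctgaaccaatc
ATF3 (chr1:212565176-212565263, plus strand): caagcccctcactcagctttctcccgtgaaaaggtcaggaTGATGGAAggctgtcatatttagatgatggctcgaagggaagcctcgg
The element of AARS1 began 187 bases before its RefSeq gene start, that of ASNS 68 bases, that of CHAC1 209 bases, that of IARS1 13 bases and that of ATF3 191 bases. GENCODE 44 starts AARS1, IARS1, ASNS and CHAC1 further upstream, so that 4 of the 5 elements lie inside the genes as GENCODE draws them. AARS1, IARS1 and CHAC1 carry it in the reverse orientation. SLC7A5 and JDP2, which fell most on this list, held no TGATGNAA in the window searched.

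**Figure D2:**
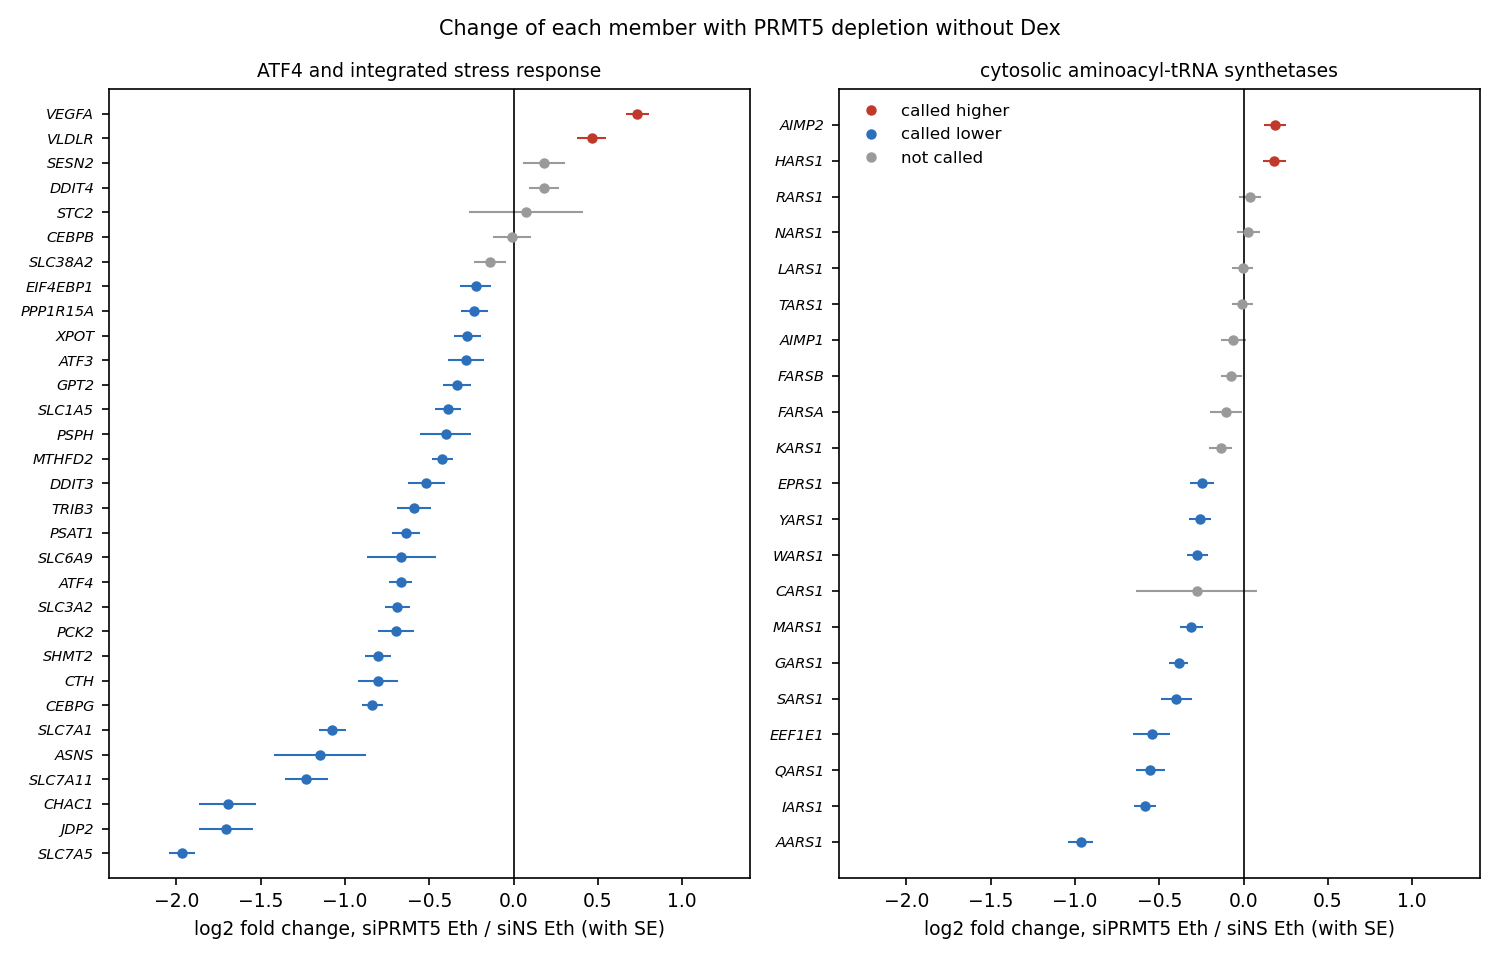
Log2 fold change of siPRMT5 Eth over siNS Eth, with its SE, of the 31 ISR genes tested (left) and of 21 of the 22 cytosolic synthetase genes tested (right), ordered by value. Blue points were called lower, red points higher, and grey points did not pass the test. On the left 24 points are blue, down to -1.97 for SLC7A5, and on the right AARS1 stands below the other 20.

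Chaperones also fell. In the list of ER chaperones and unfolded protein response genes, 10 of 19 fell (52.6%) and 0 rose by edgeR (1 at an unadjusted p under 0.05, 0 by DESeq2), with a median log2 fold change of -0.23. Besides HSPA5, EDEM1, which takes misfolded proteins out of the folding cycle, fell to -0.68, the calcium-binding chaperone CALR to -0.66, and XBP1, a transcription factor of the response, to -0.42. HSP90B1 and PDIA6 did not pass the test (-0.10 and -0.0000). Among cytosolic and mitochondrial heat shock proteins, 13 of 17 fell (76.5%) and 2 rose (11.8%). DNAJB1, the stress-induced partner of HSP70, was at 288, 339.6 and 332 CPM in the siNS libraries and 151, 165 and 147 CPM in the siPRMT5 libraries (log2 fold change -1.05 ± 0.07 SE, adjusted p = 1.4e-11). HSP90AA1, the inducible HSP90, fell from 7899 ± 326 CPM (SD, n = 3) to 5460.3 ± 282 CPM (SD, n = 3). HSF1, the factor that drives these genes, fell to -0.47 (adjusted p = 7.8e-05). BAG3 and HSPB1, which act together in protein disposal, rose by 0.41 and 0.37 on the log2 scale.

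Most genes of DNA replication fell. Of the 48 genes of replication and of entry into S phase that were tested, 31 fell (64.6%) and 3 rose (6.25%), with a median log2 fold change of -0.33. CHAF1B, a subunit of the complex that loads histones on new DNA, had the largest decrease (25.6, 21.2 and 23.9 CPM in the siNS libraries and 7.83, 7.98 and 8.20 CPM in the siPRMT5 libraries; log2 fold change -1.55 ± 0.12 SE, adjusted p = 1.9e-10). MCM6, a subunit of the replicative helicase, was at 174, 171 and 166 CPM in the siNS libraries and 61.7, 64.6 and 69.8 CPM in the siPRMT5 libraries (log2 fold change -1.38 ± 0.07 SE, adjusted p = 2.2e-14). The groups did not overlap in either gene, as in 49.1% of all genes tested, and both were named for their large decreases. The other helicase subunits MCM2, MCM3, MCM4 and MCM7 fell less (-0.35, -0.45, -0.24 and -0.55), and MCM5 did not pass the test (-0.13). All 4 subunits of the GINS complex, which activates that helicase, fell, from -0.39 for GINS3 to -1.27 for GINS2. CDC45, CDT1 and CDC6, which assemble the origin complexes, and TYMS, which makes thymidylate, fell to -0.71, -0.69, -0.40 and -0.70. E2F1, which drives many of these genes, fell to -0.49 (adjusted p = 2.7e-04). CCND1, for cyclin D1, rose (429, 400.1 and 428 CPM in the siNS libraries and 626, 613 and 721 CPM in the siPRMT5 libraries; log2 fold change 0.64 ± 0.07 SE, adjusted p = 7.8e-08), as did the polymerase POLE (0.38) and the repressor E2F7 (0.31). Of 45 DNA repair genes, 19 fell (42.2%) and 3 rose (6.67%). RAD51AP1, a protein of homologous recombination, was at 69.2, 62.0 and 66.2 CPM in the siNS libraries and 31.2, 33.5 and 31.8 CPM in the siPRMT5 libraries (log2 fold change -1.03 ± 0.10 SE, adjusted p = 5.6e-09), and FANCD2, a central protein of crosslink repair, fell to -0.91. RAD51C and XRCC2, which act in the same pathway as RAD51AP1, fell to -0.76 and -0.72. The kinase ATM rose by 0.49 on the log2 scale.

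Genes of mitosis moved the other way. Of 42 tested, 19 rose (45.2%) and 2 fell (4.76%), with a median log2 fold change of 0.20. KIF20A, a kinesin of cytokinesis whose gene overlaps BRD8 and CDC23, was at 151, 168 and 167 CPM in the siNS libraries and 268, 274 and 256 CPM in the siPRMT5 libraries (log2 fold change 0.71 ± 0.07 SE, adjusted p = 5.0e-09). AURKA, a kinase of the spindle poles, was at 269, 251 and 273 CPM in the siNS libraries and 398, 406 and 397 CPM in the siPRMT5 libraries (log2 fold change 0.60 ± 0.06 SE, adjusted p = 1.4e-08). The increases of both genes were under 2-fold. Their groups did not overlap, as in 49.1% of all genes tested, and both were named for their large increases. ESPL1, the protease that separates sister chromatids, rose by 0.57, CCNA2, for cyclin A2, by 0.45 and the phosphatase CDC25C by 0.55 on the log2 scale. CCNB1, CDK1 and PLK1, which start mitosis, did not pass the test (log2 fold change -0.03, -0.0036 and -0.13). The 2 genes that fell were MAD2L1 and BUB3 of the spindle checkpoint (-0.34 and -0.16).

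**Figure D3:**
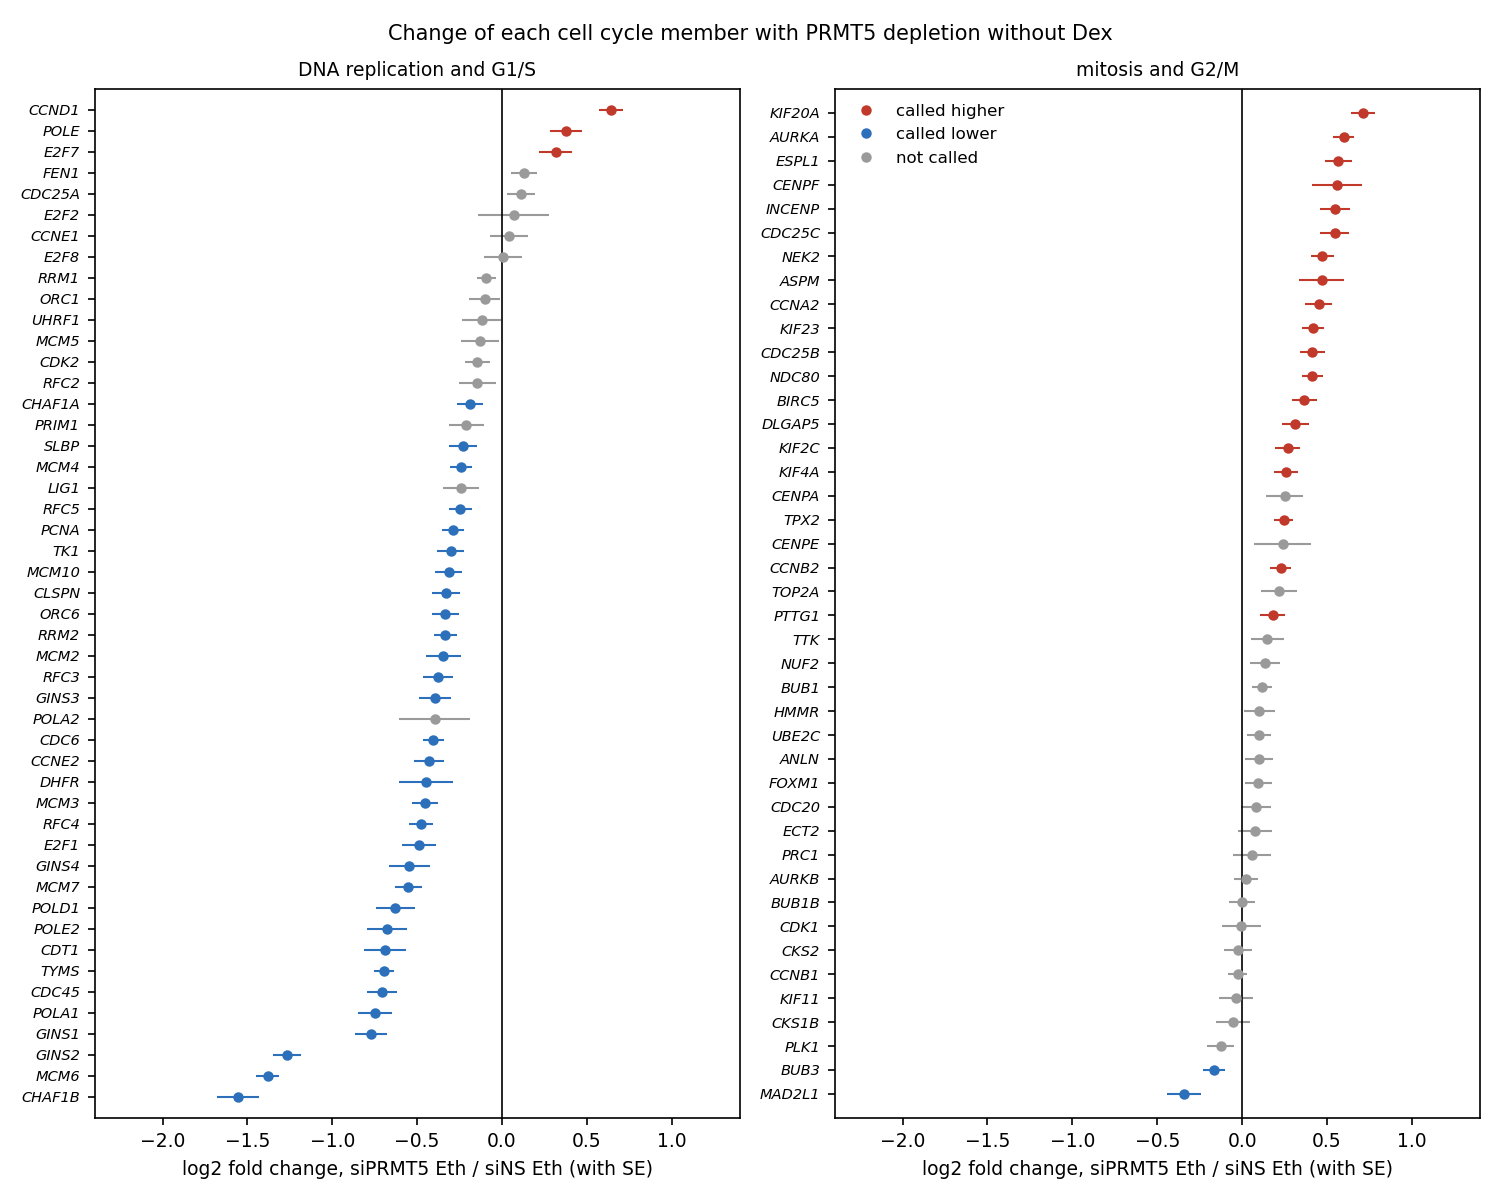
Log2 fold change of siPRMT5 Eth over siNS Eth, with its SE, of the 48 replication genes (left) and the 42 mitosis genes tested (right), ordered by value and coloured by call (blue lower, red higher, grey not called). On the left 31 points are blue and on the right 19 are red.

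Targets of p53 went both ways: 9 of 24 rose (37.5%) and 4 fell (16.7%), against 20.6% and 21.6% of all genes. TP53INP1, a stress protein of autophagy and cell death, had the largest increase (15.5, 10.9 and 13.4 CPM in the siNS libraries and 32.1, 34.8 and 39.8 CPM in the siPRMT5 libraries; log2 fold change 1.43 ± 0.13 SE, adjusted p = 3.9e-09). CDKN1A, which encodes the cell cycle inhibitor p21, and GADD45A fell (-0.45 and -0.55), and MDM2 did not pass the test (-0.18). Of 13 BCL2 family genes, 3 rose (23.1%) and 3 fell (23.1%), near the shares over all genes (20.6% and 21.6%). Among those that promote apoptosis, BMF is described above, and BID and PMAIP1 rose by 0.39 and 0.32. The protective BCL2L1 was at 500.3, 541 and 545 CPM in the siNS libraries and 344, 339 and 337 CPM in the siPRMT5 libraries (log2 fold change -0.64 ± 0.06 SE, adjusted p = 2.1e-09). MCL1 and BCL2, which are also protective, did not pass the test (-0.10 and -0.08).

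Interferon-stimulated genes rose. Of the 41 listed, 33 were tested, of which 21 rose (63.6%) and 2 fell (6.06%), and the median log2 fold change was 0.50. OAS1, which makes the second messenger of RNase L, had 1, 5 and 0 counts in the siNS libraries and 24, 16 and 24 counts in the siPRMT5 libraries (adjusted p = 1.8e-06), so its fold change rests on few reads. OAS2, of the same family, was at 2.32, 1.43 and 2.07 CPM in the siNS libraries and 9.23, 8.81 and 8.60 CPM in the siPRMT5 libraries (log2 fold change 2.19 ± 0.21 SE, adjusted p = 4.1e-09). IFIH1, the sensor MDA5 of double-stranded RNA, was at 17.2, 16.4 and 12.8 CPM in the siNS libraries and 42.4, 43.4 and 39.0 CPM in the siPRMT5 libraries (log2 fold change 1.43 ± 0.11 SE, adjusted p = 6.0e-11). In these genes the lowest siPRMT5 library was above the highest siNS library. The groups did not overlap in 49.1% of all genes tested. IRF1, a transcription factor of the response, rose by 1.16 on the log2 scale, and STAT2, which carries the interferon signal, by 0.55. The membrane proteins IFITM1, IFITM2 and IFITM3 rose by 0.95, 0.70 and 0.66. ISG15, MX1 and USP18 did not pass the test (log2 fold change 0.33, 0.46 and 0.48). The 2 genes that fell were DDX58, the RNA sensor RIG-I (195, 187 and 186 CPM in the siNS libraries and 104, 115 and 99.3 CPM in the siPRMT5 libraries; log2 fold change -0.83 ± 0.08 SE, adjusted p = 7.6e-09), and DDX60, its cofactor (-0.66). Of 15 antigen presentation genes, 6 were tested and 5 rose (83.3%, against 20.6% of all genes), among them the peptide-trimming proteases ERAP1 and ERAP2 (0.71 and 0.72). The other 9 had too few counts.

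Chromatin enzymes rose more often than fell. Of 38 histone lysine methyltransferases and demethylases, 22 rose (57.9%) and 3 fell (7.89%). The H3K9 demethylase KDM3A rose from 47.1 ± 4.38 CPM (SD, n = 3) to 89.9 ± 5.46 CPM (SD, n = 3) (log2 fold change 0.93 ± 0.08 SE, adjusted p = 1.0e-09), and the H3K4 methyltransferases KMT2C and KMT2D rose by 0.90 and 0.70 on the log2 scale. KMT5A, the H4K20 monomethyltransferase, fell (34.7, 37.6 and 41.3 CPM in the siNS libraries and 13.8, 18.1 and 15.6 CPM in the siPRMT5 libraries; log2 fold change -1.26 ± 0.11 SE, adjusted p = 4.2e-10), while KMT5B and KMT5C, which add the further methyl groups, rose (0.66 and 0.89). EHMT1, for GLP, did not pass the test (-0.12), and EHMT2, for G9a, had 0 or 1 count per library. EHMT2 lies in the MHC region (chr6:31879759-31897698), whose genes were largely at 0 counts in these files. Its counts therefore do not show whether it is expressed, and the study depleted G9a by siRNA in this line. Of the HP1 proteins, CBX1 fell (128, 131 and 134 CPM in the siNS libraries and 67.0, 67.0 and 69.5 CPM in the siPRMT5 libraries; log2 fold change -0.95 ± 0.07 SE, adjusted p = 3.3e-11), CBX5 fell by less (-0.22, adjusted p = 0.024), and CBX3, which encodes HP1γ, did not pass the test (-0.19, adjusted p = 0.072). LMNB1, for lamin B1, rose from 226 ± 2.43 CPM (SD, n = 3) to 425 ± 10.4 CPM (SD, n = 3) (log2 fold change 0.91 ± 0.06 SE, adjusted p = 1.8e-11).

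Long transcripts were called higher more often than short ones. Of the protein-coding genes found in GENCODE 44, the fifth with the shortest transcripts (median 1734 bases) had 18.4% called higher and 23.4% lower, and the fifth with the longest (median 8257 bases) had 33.4% and 18.5%. The histone lysine methyltransferases and demethylases have a median of 6600 bases, against 4016.5 for all protein-coding genes tested. With each library's trend with transcript length removed, 20 of these 38 genes rose and 4 fell. Over all genes that fit called 6629, with 3271 higher (49.3% of the calls), against 6446 and 3149 (48.9%) in the main fit. The ISR genes then had 21 lower and 3 higher, the cytosolic synthetases 10 and 1, the mitochondrial synthetases 5 and 1, the ER chaperones 11 and 0, the heat shock proteins 11 and 2, the replication genes 29 and 4 and the DNA repair genes 21 and 4. The mitosis genes had 21 higher and 2 lower, the p53 targets 9 and 6, the BCL2 family 3 and 3, the interferon-stimulated genes 22 and 2, the antigen presentation genes 4 and 0, the partners of PRMT5 2 and 1 and the other arginine methyltransferases 2 and 2. By class of gene, 24.3% of 11666 protein-coding genes rose and 23.3% fell, whereas of 558 long non-coding RNAs 8.42% rose and 27.1% fell.

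The 3 genes that the study follows for migration, IGFBP3, PLAT and CCBE1, were all lower without Dex. IGFBP3, which binds insulin-like growth factors, lies at chr7:45912245-45921874 on the minus strand and was at 182, 190.1 and 217 CPM in the siNS libraries and 63.3, 62.7 and 64.0 CPM in the siPRMT5 libraries (log2 fold change -1.63 ± 0.08 SE, adjusted p = 7.4e-15), which leaves 32.3%. PLAT, the tissue plasminogen activator, was at 37.2, 46.3 and 41.5 CPM in the siNS libraries and 18.7, 21.2 and 17.2 CPM in the siPRMT5 libraries (log2 fold change -1.14 ± 0.11 SE, adjusted p = 8.8e-09). CCBE1, a secreted protein of lymphatic growth, was at 35.7, 32.9 and 38.8 CPM in the siNS libraries and 18.7, 20.9 and 17.4 CPM in the siPRMT5 libraries (log2 fold change -0.92 ± 0.09 SE, adjusted p = 1.6e-08). None of the 3 overlapped between the groups, as was the case for 49.1% of all genes tested. The study picked these genes on this series, by their Dex response in siNS cells and by the depletions. That they went one way is therefore not independent evidence. By RT-qPCR in independent experiments, the study also reports that PRMT5 depletion affected them without Dex. Other IGF genes went both ways: 6 of 13 rose (46.2%) and 4 fell (30.8%), IGFBP3 included. IGFBP4 and IGFBP6, further binding proteins, rose by 0.80 and 0.66, and IGF2BP3, an RNA-binding protein that is named for IGF2, by 1.13 on the log2 scale. GRB10, an adaptor that restrains the receptors, fell to -0.59.

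Matrix genes changed within the list in both directions. Of 31 collagens, laminins and cross-linkers tested, 14 rose (45.2%) and 7 fell (22.6%). COL1A1, which is also a fibroblast marker, rose from a low level (3.42, 3.57 and 2.69 CPM in the siNS libraries and 12.4, 13.97 and 15.1 CPM in the siPRMT5 libraries; log2 fold change 2.10 ± 0.18 SE, adjusted p = 4.7e-10). Of the endothelial markers, PECAM1 rose (log2 fold change 1.31), while VWF had 5, 7 and 6 counts in the siNS libraries and 1, 2 and 1 in the siPRMT5 libraries, too few to be tested. DCN and LUM, further fibroblast markers, were at 0 counts. COL6A1 and LAMA3 rose by 1.29 and 1.05 on the log2 scale. The collagen-modifying enzymes LOXL1 and PLOD3 fell to -1.25 and -0.99. FN1, for fibronectin, was at 137, 159 and 134 CPM in the siNS libraries and 329.6, 384 and 369 CPM in the siPRMT5 libraries (log2 fold change 1.33 ± 0.09 SE, adjusted p = 1.3e-11). Of 21 metalloproteases and inhibitors, 11 rose (52.4%) and 5 fell (23.8%). MMP1, the interstitial collagenase, was at 24.2, 22.7 and 21.96 CPM in the siNS libraries and 7.51, 6.81 and 7 CPM in the siPRMT5 libraries (log2 fold change -1.69 ± 0.12 SE, adjusted p = 1.2e-11), and the gelatinase MMP9 rose from 0.837 ± 0.179 CPM (SD, n = 3) to 3.66 ± 0.578 CPM (SD, n = 3). ADAM15, a membrane-bound metalloprotease, fell to -1.12 and ADAM8 rose by 0.79. Among 14 integrin chains, 4 rose (28.6%) and 3 fell (21.4%), against 20.6% and 21.6% of all genes. The common chain ITGB1 was at 626, 629 and 641 CPM in the siNS libraries and 375, 393 and 377 CPM in the siPRMT5 libraries (log2 fold change -0.73 ± 0.06 SE, adjusted p = 3.7e-10), ITGA3 and ITGA2 fell to -0.52 and -0.34, and ITGB3 rose by 1.58. Of 18 genes of epithelial and mesenchymal identity, 6 rose (33.3%) and 1 fell (5.56%). The keratin KRT7 rose by 1.63, VIM did not pass the test (0.14), and CD44 was the one that fell (-0.18).

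In the TGF-β pathway, 13 of 29 genes rose (44.8%) and 3 fell (10.3%), against 20.6% and 21.6% of all genes. The ligand TGFB3 had 3, 14 and 11 counts in the siNS libraries and 42, 50 and 68 in the siPRMT5 libraries (log2 fold change 2.54 ± 0.30 SE, adjusted p = 1.5e-07). The receptors TGFBR1, TGFBR2 and TGFBR3 rose by 0.44, 0.53 and 0.81 on the log2 scale. The inhibitory SMAD6 and SMAD7 rose by 2.57 and 0.85, SMAD2 rose by 0.31, and SMAD3 and SMAD4 did not pass the test (0.13 and -0.03). The targets CCN2 and TGFBI fell (-1.24 and -0.42).

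Of 14 genes of FGF receptors and their feedback, 5 rose (35.7%) and 5 fell (35.7%), against 20.6% and 21.6% of all genes. The ligand FGF1 was at 12.8, 12.7 and 12.9 CPM in the siNS libraries and 3.97, 4.34 and 3.30 CPM in the siPRMT5 libraries (log2 fold change -1.73 ± 0.15 SE, adjusted p = 1.3e-09), and the receptor FGFR1 did not pass the test (0.08). The feedback inhibitors SPRY1, SPRY2 and SPRY4 rose by 1.32, 0.48 and 0.30, and the ERK phosphatases DUSP6 and DUSP4 by 1.25 and 0.67. DUSP6 was at 229, 218 and 216 CPM in the siNS libraries and 531, 506 and 539.6 CPM in the siPRMT5 libraries. The EGF receptor EGFR fell (257, 241 and 244 CPM in the siNS libraries and 134, 150.2 and 161 CPM in the siPRMT5 libraries; log2 fold change -0.74 ± 0.09 SE, adjusted p = 3.1e-07), and its ligands EREG and TGFA rose by 0.68 and 0.42. Of 16 genes of the Hippo pathway and its targets, 7 fell (43.8%) and 6 rose (37.5%). The targets AXL, CCN1, CCN2 and ANKRD1 fell, as did the factor TEAD1 (-0.90), while the kinases LATS1 and LATS2 rose by 0.53 and 0.46. YAP1 was at 0.07 and did not pass the test, and its paralog WWTR1 rose by 0.53. Among 13 AP-1 and immediate early genes, 6 fell (46.2%) and 3 rose (23.1%). MYC was at 709, 786 and 762 CPM in the siNS libraries and 421, 384 and 389 CPM in the siPRMT5 libraries (log2 fold change -0.92 ± 0.07 SE, adjusted p = 5.3e-11), EGR1 and FOSL1 fell to -0.88 and -0.85, and FOSL2 and FOSB rose by 0.88 and 0.92. Of 21 cytokine and NF-κB genes, 9 rose (42.9%) and 5 fell (23.8%), but 4 rose without siPRMT5 Eth replicate 1 and 3 fell without siPRMT5 Eth replicate 3. The cytokine IL6, the inhibitor of apoptosis BIRC3 and the adhesion molecule ICAM1 rose by 0.82, 0.71 and 0.67 on the log2 scale. IL11, a cytokine of the IL-6 family, was at 31.8, 31.2 and 28.4 CPM in the siNS libraries and 9.87, 8.45 and 10.1 CPM in the siPRMT5 libraries (log2 fold change -1.68 ± 0.11 SE, adjusted p = 8.4e-12). IL1A, an inflammatory cytokine, was at 95.7, 94.8 and 94.3 CPM in the siNS libraries and 37.2, 31.8 and 31.3 CPM in the siPRMT5 libraries (log2 fold change -1.50 ± 0.09 SE, adjusted p = 1.1e-12).

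Of 16 genes for Sm and Lsm proteins, among which are splicing substrates of PRMT5, 5 fell (31.2%, against 21.6% of all genes) and 0 rose by edgeR (1 at an unadjusted p under 0.05, 0 by DESeq2). The 5 became 2 without siNS Eth replicate 3, 3 without siPRMT5 Eth replicate 3 and 3 with the length trend removed. SNRPD1 fell to -0.22, SNRPB and SNRPD3, which carry arginines that PRMT5 methylates, did not pass the test (0.12 and -0.06), and LSM5 had the largest decrease (log2 fold change -0.59 ± 0.10 SE, adjusted p = 1.8e-05). Of 32 SR proteins, hnRNPs and splicing kinases, 5 rose (15.6%) and 7 fell (21.9%), no more than about the shares over all genes (20.6% and 21.6%). The 5 that rose became 3 without siNS Eth replicate 2, siNS Eth replicate 3 or siPRMT5 Eth replicate 2. SRPK1, which phosphorylates SR proteins, stood apart (503, 463 and 469 CPM in the siNS libraries and 202, 207 and 215 CPM in the siPRMT5 libraries; log2 fold change -1.20 ± 0.07 SE, adjusted p = 1.3e-13). Counts per gene do not show whether introns were kept or exons skipped, so splicing itself was not measured here. Of 72 cytosolic ribosomal protein genes, 8 fell (11.1%) and 0 rose by edgeR (1 at an unadjusted p under 0.05, 0 by DESeq2). RPL38 had the largest decrease (293, 296 and 291 CPM in the siNS libraries and 181, 169 and 143 CPM in the siPRMT5 libraries; log2 fold change -0.84 ± 0.08 SE, adjusted p = 5.5e-09). RPL9 and RPL21 fell to -0.51 and -0.42 but have many pseudogenes that can take their reads. With the length trend removed, 5 ribosomal protein genes rose. Of 44 nuclear genes of oxidative phosphorylation, 5 rose (11.4%) and 5 fell (11.4%), and UQCRC2 of complex III had the largest decrease (log2 fold change -0.76 ± 0.06 SE, adjusted p = 6.5e-10).

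In metabolism, SLC2A1, the main glucose transporter, was at 198, 200 and 207 CPM in the siNS libraries and 80.7, 80.8 and 84.8 CPM in the siPRMT5 libraries (log2 fold change -1.30 ± 0.06 SE, adjusted p = 1.6e-14). Of 32 genes of glycolysis and hypoxia, 12 rose (37.5%) and 6 fell (18.8%), and EGLN3, an oxygen-sensing hydroxylase, rose by 1.46 on the log2 scale. Of 30 cholesterol synthesis genes, 6 rose (20%) and 6 fell (20%), near the shares over all genes (20.6% and 21.6%). ACLY, which supplies acetyl-CoA, fell (log2 fold change -0.77 ± 0.07 SE, adjusted p = 2.2e-09). Of 14 genes of polyamine synthesis and of the methionine cycle, which supplies the methyl donor of PRMT5, 7 fell (50%) and 3 rose (21.4%). AHCYL1, a protein related to the hydrolase of S-adenosylhomocysteine, was at 453, 400.4 and 420.0 CPM in the siNS libraries and 183, 172 and 179.8 CPM in the siPRMT5 libraries (log2 fold change -1.25 ± 0.06 SE, adjusted p = 3.9e-14). The polyamine enzymes ODC1, SRM and AMD1 fell to -0.69, -0.72 and -0.43, and MAT2A, which makes S-adenosylmethionine, did not pass the test (0.04).

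Of 22 glucocorticoid target genes, 11 rose (50%) and 4 fell (18.2%) in siPRMT5 cells that had received no Dex, against 20.6% and 21.6% of all genes. TSC22D3, which encodes GILZ, was at 19.8, 17.8 and 19.4 CPM in the siNS libraries and 45.9, 42.1 and 40.697 CPM in the siPRMT5 libraries (log2 fold change 1.18 ± 0.11 SE, adjusted p = 7.1e-09). CEBPD, PER1 and SGK1, which Dex induces in many cells, rose by 0.83, 0.54 and 0.43 on the log2 scale. FKBP5 fell to -0.33, and DUSP1 was at 74.1, 81.6 and 74.8 CPM in the siNS libraries and 38.1, 34.9 and 39.2 CPM in the siPRMT5 libraries (log2 fold change -1.04 ± 0.08 SE, adjusted p = 1.3e-10). NR3C1, which encodes GR, did not pass the test (0.18, adjusted p = 0.12).

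The effect of PRMT5 depletion was next read in the Dex libraries, which share no library with the Eth comparison. There siPRMT5 against siNS changed 6488 genes (42.4% of those tested). Of the 6446 genes called without Dex, 5966 (92.6%) had the same direction with Dex, 4296 were called the same way (66.6% of those called without Dex and 66.2% of those called with it) and 62 were called the opposite way. The median ratio of the log2 fold change with Dex to that without was 0.780 over the 2741 genes changed at least 1.5-fold, which were selected on their value without Dex. A difference between both effects was called for 582 genes (3.8% of those tested), 397 of them called without Dex, and in 342 of these 397 the effect with Dex was smaller or turned. These 397 were also selected on their value without Dex, which enters the difference. The count of 342 therefore does not show that Dex weakens the effect. AARS1 gave -1.10 with Dex and -0.97 without, AXL -2.13 and -2.13, and SLC7A5 -2.06 and -1.97, and none of the 3 was called for a difference. IGFBP3 fell less with Dex (-0.71; difference log2 fold change 0.92 ± 0.10 SE, adjusted p = 3.3e-06). In siNS cells Dex had raised IGFBP3 to 495 ± 28.2 CPM (SD, n = 3), and the siPRMT5 Dex libraries were at 302 ± 7.44 CPM (SD, n = 3). DUSP1 was 0.18 with Dex against -1.04 without (difference log2 fold change 1.22 ± 0.11 SE, adjusted p = 8.0e-08), and FN1 was 0.39 against 1.33 (difference log2 fold change -0.94 ± 0.13 SE, adjusted p = 8.5e-05). With Dex, 23 of the 31 ISR genes were called lower and 2 higher, and 28 of the 48 replication genes lower and 1 higher. Of the 42 mitosis genes, 26 were called higher with Dex and 1 lower. The 33 interferon-stimulated genes had 17 higher and 2 lower, and the 38 histone lysine enzymes 13 and 5. Over all genes, 42.4% were called with Dex in either direction, and the share in each direction was not taken.

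**Figure D4:**
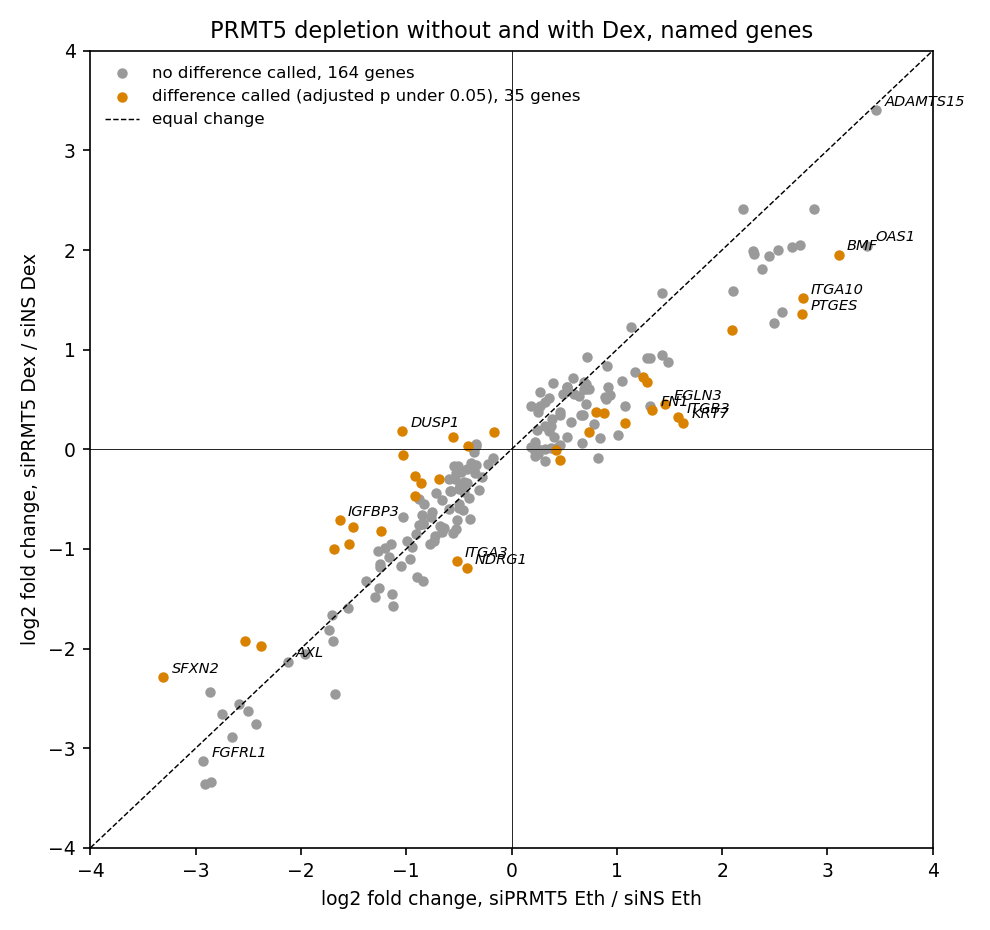
Log2 fold change of siPRMT5 over siNS without Dex (x axis) and with Dex (y axis) for the 199 named genes other than PRMT5, with 35 genes whose effects differ in orange and the dashed line at equal change. DUSP1 lies above the x axis at -1.04 and 0.18, and KRT7, FN1, EGLN3 and ITGB3 lie well below the dashed line.

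Depletion of HP1γ without Dex was compared with that of PRMT5 by testing siPRMT5 Eth against siHP1γ Eth, in which 7398 genes differed (48.4% of those tested). This contrast shares the siPRMT5 Eth libraries with the comparison above. siHP1γ against siNS, which shares the siNS Eth libraries with the comparison of siPRMT5, changed 4860 genes (31.8%). Of the 2741 genes that PRMT5 depletion changed at least 1.5-fold, 2143 (78.2%) differed between siPRMT5 and siHP1γ. In the mitosis list, 37 of 42 genes differed between the depletions: KIF20A had a log2 fold change of 0.71 with siPRMT5 and -0.48 with siHP1γ, against siNS. In the replication list 23 of 48 differed, near the share over all genes (48.4%). Its member MCM6 had -1.38 and -0.81 (siPRMT5 against siHP1γ log2 fold change -0.57 ± 0.07 SE, adjusted p = 1.6e-07). Of the 31 ISR genes 25 differed, with SLC7A5 at -1.97 and -0.75 and CHAC1 at -1.70 and 0.50, and of the 33 interferon-stimulated genes 29 differed, with IFIH1 at 1.43 and -0.32. AARS1 was -0.97 with siPRMT5 and -0.001 with siHP1γ, and IGFBP3 -1.63 and -0.99 (siPRMT5 against siHP1γ adjusted p = 1.0e-10 and 1.1e-07). LMNB1 was 0.91 and -1.10, and 2.01 in siPRMT5 against siHP1γ.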

How the data were processed

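Total RNA of MDA-MB-231 cells was measured in 18 libraries, 3 for each of 6 conditions, made with Lexogen kits with unique dual indices and sequenced on a NextSeq500. The authors aligned reads to hg38 with Bowtie2 2.4.2, which does not split reads across introns, counted them per gene with HTSeq 0.9.1 and deposited raw counts. Their notes also name DESeq2 2.11.40.7. Strand setting, annotation and read length are not given in the sources used here, so overlapping genes, antisense genes and pseudogenes may share reads. A table of the authors' own Dex comparisons was not used.

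From the deposited counts, genes kept by filterByExpr were fitted over all 18 libraries with 1 mean per condition (edgeR 4.0.16, TMM, quasi-likelihood F test, two-sided, 12 residual degrees of freedom, Benjamini-Hochberg, R 4.3.3). Genes with an adjusted p under 0.05 were called. SE is the log2 fold change divided by the root of F. Groups came from the sample labels. Replicates are called biological by the study. Named genes are PRMT5, the 12 largest changes each way (mean of at least 5 CPM, no overlap), the 6 of highest CPM changed at least 2-fold, AARS1, IGFBP3, PLAT, CCBE1 and up to 3 called members each way of 38 gene lists. Further list members are named for their role or because they did not pass, with their values seen. The members and lists were chosen with earlier results of these data known. Positions, overlaps and transcript lengths came from GENCODE 44 (13500 of 15298 genes tested matched by symbol), promoters from RefSeq. Genes of the MHC region and mitochondrial genes were largely at 0 counts and not tested. Some genes of this series are not reported here. Alternatives were DESeq2 1.42.0, other size factors, other filters, the 6 libraries alone, a replicate block, each library left out and a length correction.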

Additional observations from a re-analysis of the deposited data

Results flagged for a closer look

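Among the 200 named genes, the effect of PRMT5 depletion differed between Dex and Eth (interaction in the edgeR fit, adjusted p under 0.05) in 36, of which 35 are given. Most named genes were chosen on their value without Dex, which enters the difference. The directions below are therefore partly set by that choice. Each value below is the log2 fold change of siPRMT5 over siNS with Dex minus that without. Among genes that rose without Dex, the difference was -1.15 for BMF, -1.24 for ITGA10, -1.40 for PTGES, -0.56 for VEGFA, -0.57 for VLDLR, -0.43 for MVK, -0.43 for IGFBP4, -1.36 for KRT7, -0.94 for FN1, -0.90 for COL1A1, -0.61 for COL6A1, -1.25 for ITGB3, -0.52 for DUSP6, -0.51 for FOSL2 and -1.01 for EGLN3. Among genes that fell without Dex, it was 0.57 for PRMT5, 1.02 for SFXN2, 0.61 for ADAMTS6, 0.41 for FAM120A, 0.42 for CCN2, 0.59 for SSR3, 0.92 for IGFBP3, 0.65 for CCBE1, 0.52 for NARS2, 0.33 for BUB3, 1.22 for DUSP1, 0.68 for ERRFI1, 0.68 for MMP1, 0.45 for TGFBI, 0.73 for IL1A, 0.97 for CXCL1, 0.45 for MYC and 0.39 for ODC1, where the decrease was smaller with Dex or turned. ITGA3 (-0.60) and NDRG1 (-0.77) fell more with Dex. For PRMT5 itself, the siPRMT5 libraries were at 7.41 ± 1.17 CPM (SD, n = 3) without and 10.5 ± 1.074 CPM (SD, n = 3) with Dex.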

How the results depend on the processing

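PRMT5 and the other named genes kept their direction under each alternative that gave them a value. With at least 10 counts in every library, 187 of the 200 were tested. The number of genes called lay between 5406 (DESeq2 on the 6 Eth libraries alone) and 6629 (transcript length trend removed, chosen after seeing the data), and the share of calls that were higher between 47.5% and 51.7%. With each library left out in turn it was 5553 to 5882, and 8 to 16 of the 200 named genes lost their call, most without siPRMT5 Eth replicate 2. Among those described, AIMP2, BUB3, CBX5, COPRS, PMAIP1 and TGFA lost it in 4 of the 6 fits, and CD44 and SMAD7 in 3. Against a 1.5-fold change (glmTreat), 1035 genes passed in place of 2741. Replicate numbers did not pair the libraries, since deviations of same-numbered siNS and siPRMT5 libraries correlated at -0.091, 0.17 and -0.049. With the replicate block, 6499 genes were called, and 6154 with the replicate block in the 6 Eth libraries alone.

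Several small counts moved by over 1.5 times. Cytosolic synthetases called higher were 0 in place of 2 without a filter on low counts, and in the 6 Eth libraries alone by edgeR, with the replicate block or by DESeq2. They were 1 with the length trend removed, and 0 to 2 with a library left out. Mitosis genes called lower were 1 in place of 2 with library size only, without a filter, and in the 6 Eth libraries alone by edgeR, with the block or by DESeq2, and 1 to 2 with a library left out. Ribosomal protein genes called higher were 1 without a filter, 5 with the length trend removed and 0 to 4 with a library left out, in place of 0, and those called lower were 5 without a filter, in place of 8. DNA repair genes called higher were 1 to 3 with a library left out, 1 without siPRMT5 Eth replicate 2. With a library left out, cytokine and NF-κB genes called higher were 4 to 9 and lower 3 to 5, Sm and Lsm genes called lower 2 to 6 and higher 0 to 1, SR protein and hnRNP genes called higher 3 to 6, heterochromatin genes called lower 1 to 4, histone genes called lower 1 to 2, and each of the PRMT5 partners called higher, the other arginine methyltransferases called higher and the identity genes called lower 0 to 1. The difference of the PRMT5 effect between Dex and Eth was called in 319 to 819 genes with a library left out, in place of 582. It was called in 319 without siNS Eth replicate 1, 337 without siNS Eth replicate 3 and 341 without siPRMT5 Eth replicate 2. The causes were not tested, other than that each of these fits had fewer libraries. Depth limits genes near 3 counts, 0.300 to 0.352 CPM.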
